A study of Mus musculus with 12 samples.

Results

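The Wnt pathway was followed through 38 genes in embryonic mouse hearts labelled as conditional mutants of the ubiquitin ligase subunit Asb2, of the actin crosslinker filamin A (Flna), or of both. The genes were chosen by name for their place in the pathway, with earlier results of these data known. They make up 38 of the 15663 genes of the joined expression tables. They are 8 Wnt ligands, 9 Frizzled receptors, 4 co-receptors, 6 secreted modulators, 6 intracellular regulators and 5 nuclear effectors, and each was listed in all 12 libraries and passed the filter on low values in every comparison. RNA sequencing was done on total RNA of whole hearts at e9.5 from mice labelled C57/BL 6, in 4 groups of 3 libraries. The control group carried NkxCre.Asb2fl/+, so it had Cre and 1 floxed Asb2 allele. The Asb2 conditional knockout (Asb2 cKO) carried NkxCre.Asb2fl/fl, the Flna-labelled group NkxCre.Asb2fl/+.Flnafl/fl, and the double mutant NkxCre.Asb2fl/fl.Flnafl/fl. Cre and at least 1 floxed Asb2 allele were thus common to all 12 libraries. A note in one deposited table spells the driver Nkx2-5, the gene of a cardiac transcription factor, so recombination reaches the cells of that lineage and not every cell of a heart. The labels do not say whether a library is 1 heart or a pool, and p-values therefore measure only the spread between these libraries.

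Wnt ligands are secreted glycoproteins that bind Frizzled receptors together with Lrp5 or Lrp6. In the canonical branch this stops a complex of Axin, Apc and Gsk3b from marking beta-catenin (Ctnnb1) for destruction, and beta-catenin then acts with Tcf and Lef factors on target genes, among them the pathway's own inhibitors. Other branches run through Ror receptors and planar polarity proteins, and in the heart the pathway is known for its roles in progenitor expansion, outflow tract growth and valve formation.

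Depth ranged from 25954539 to 42473118 reads over the listed genes, and 1 read corresponded to between 0.0239 and 0.0380 CPM (counts scaled by library size). Markers of cardiomyocytes summed to 15658 CPM or more in every library, with 0 of 9 at 0, which fits the heart label. Asb2 RNA averaged 230.2 ± 54.1 CPM (SD, n = 3) in control and 119 ± 42.7 in Asb2 cKO, but 145 ± 45.4 in the Flna-labelled libraries, which carry the control's Asb2 genotype. Flna RNA averaged 589 ± 119 CPM in control and was not lower under the Flna label, at 986 ± 26.4 in the Flna-labelled group and 1057 ± 77.6 in the double mutant. Whole-gene values do not resolve the deleted exons, so they do not check the Flna label, and those groups are defined here by their label. Xist, the RNA of the inactive X chromosome, reached 1 CPM in 2 control, 2 Asb2 cKO, 0 Flna-labelled and 1 double mutant libraries, although Flna lies on the X chromosome. Ddx3y, a gene of the Y chromosome, ranged from 0 to 58.6 CPM in control and from 19.3 to 84.4 in Asb2 cKO. It read 61.9 to 68.3 CPM under the Flna label and 73.1 to 82.3 in the double mutant. In 4 libraries both genes reached 1 CPM, so these may mix RNA of both sexes. Xist stayed at 9.34 CPM or less in all libraries with the Flna label. Sex was thus not balanced over that label, and their parts cannot be told apart here.

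Several marker lists moved with the groups. For scale, 10.7% of all genes were called higher and 10.9% lower in Asb2 cKO against control (limma, adjusted p under 0.05). In the double mutant 15.6% were higher and 16.7% lower. The 7 erythroid genes summed to 7373 to 7949 CPM in control, 497 to 1182 in Asb2 cKO, 3009 to 3873 under the Flna label and 344 to 589.6 in the double mutant, and all 7 fell in Asb2 cKO and in the double mutant against control. The 9 pharyngeal endoderm and ectoderm genes summed to 226 to 302 CPM in control against 444 to 609 in Asb2 cKO, with 5 of 9 higher, and to 339 to 573 in the double mutant, with 2 of 9 higher. The 8 endothelial genes summed to 779 to 960.4 CPM in control and 1081 to 1469 in the double mutant, with 4 of 8 higher. In Asb2 cKO they summed to 853 to 1253 CPM, with 1 of 8 higher and 2 lower. The 7 second heart field and outflow tract genes summed to 205 to 271 CPM in control and 227 to 271 in Asb2 cKO, with 2 of 7 higher and 1 lower there. In the double mutant 1 of 7 (14.3%) went each way, close to the shares of all genes. None of the genes of these 4 lists was at 0 in a whole group. The 6 liver bud and yolk sac genes summed to 5.38 to 264 CPM in control, to 1.98 to 99.7 in Asb2 cKO and to 1.12 to 1.47 in the double mutant, where Alb and Hnf4a were at 0. The 7 epicardial and proepicardial genes summed to 53.0 CPM in control library 1 but 322 and 392 in control libraries 2 and 3, so this control library stands apart, and the results below give their values without it where the call changes. What part these shifts play in the Wnt gene values was not tested. In bulk tissue, fewer cells of a type and less RNA per cell cannot be told apart.

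The levels of the 38 genes in control hearts were compared per kilobase of the deposited gene length. Ctnnb1 stood far above the rest at 263 ± 10.6 CPM per kb (SD, n = 3), and its lowest control library did not overlap with the highest of the next gene. Next came the receptor gene Fzd2 at 33.7 ± 3.30, the secreted proteins Dkk3 at 29.8 ± 3.01 and Sfrp1 at 27.3 ± 10.2, and the ligand Wnt2 at 22.9 ± 6.28 CPM per kb. These 4 overlapped from one to the next. The lowest Wnt2 library, at 17.54 CPM per kb, lay just above the highest of Axin1, at 17.49 (mean 16.2 ± 1.28). Sfrp1, ranked above Wnt2, reached down to 16.8, so the genes above Axin1 were not separate from it as a set. After Axin1, 13 further genes from Rspo3 to Apc followed without a break between neighbours. The range of Apc at 6.18 ± 0.576 CPM per kb was separate from that of Fzd8 at 5.23 ± 0.279. It was not separate from that of Wnt4, whose highest library at 5.96 lay above the lowest of Apc at 5.85. Below Fzd8 neighbouring genes overlapped down to Wnt9a at 1.11 ± 0.738 and Wnt9b at 0.827 ± 0.158.

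**Figure D1:**
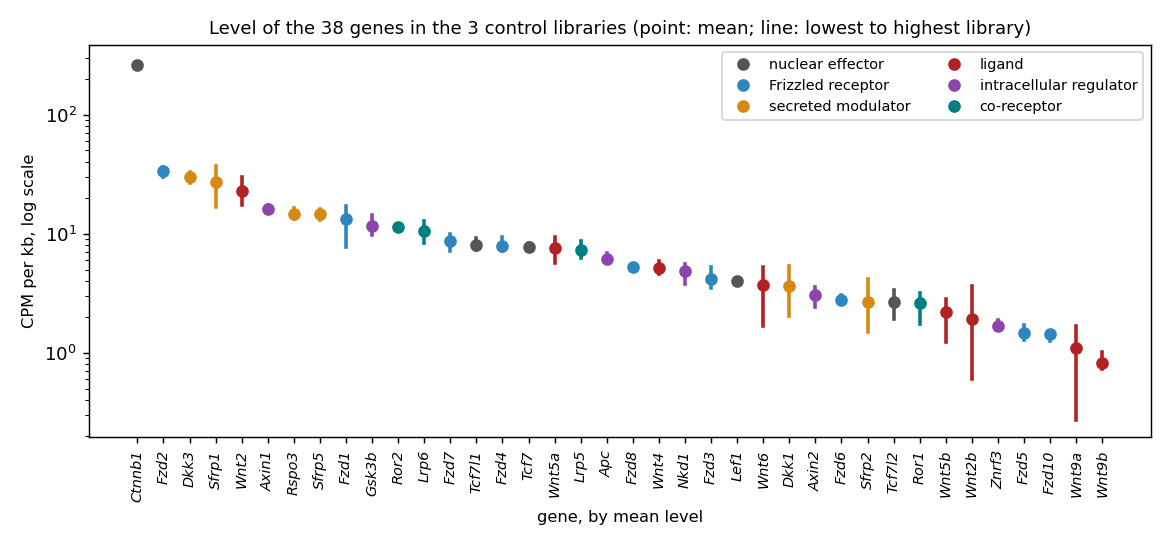
Level of each of the 38 genes in the 3 control libraries, in CPM per kb on a log scale, ordered by mean; the point is the mean, the line runs from the lowest to the highest library and the colour gives the role. Ctnnb1 at 263 CPM per kb stands alone at the top, and the ligands Wnt9a and Wnt9b close the order.

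Against control, the Frizzled receptor genes Fzd1, Fzd2, Fzd4 and Fzd7 rose both in Asb2 cKO and in the double mutant, while the ligand gene Wnt4 and the agonist gene Rspo3 fell in Asb2 cKO. In Asb2 cKO 7 of 38 members (18.4%) passed an adjusted p of 0.05 with limma, against 21.6% of the 14034 genes tested. Of these members 5 were higher (13.2%, against 10.7% of all genes) and 2 were lower (5.26%, against 10.9%). In the double mutant 11 of 38 (28.9%) passed, against 32.3% of 14015 genes, with 10 higher (26.3%, against 15.6%) and 1 lower (2.63%, against 16.7%). In either direction together, the members were called no more often than all genes. The share of members that rose in the double mutant lay above that of all genes and the share that fell lay below it, differences that were not tested. The members were chosen with earlier results of these data known, so these shares only describe the list. The median log2 difference of the 38 members was 0.22 in Asb2 cKO and 0.14 in the double mutant, where the medians of all genes were -0.01 and 0.01. Groups without overlap were common. All Asb2 cKO libraries lay above control for 10 of the 38 members and below it for 2. Over all genes this held for 2803 and 3014 of 14034. In the double mutant it held for 12 and 3 members, against 3307 and 3392 of 14015 genes. Both comparisons use the same 3 control libraries, and their values stand side by side below without being counted as separate support.

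**Figure D2:**
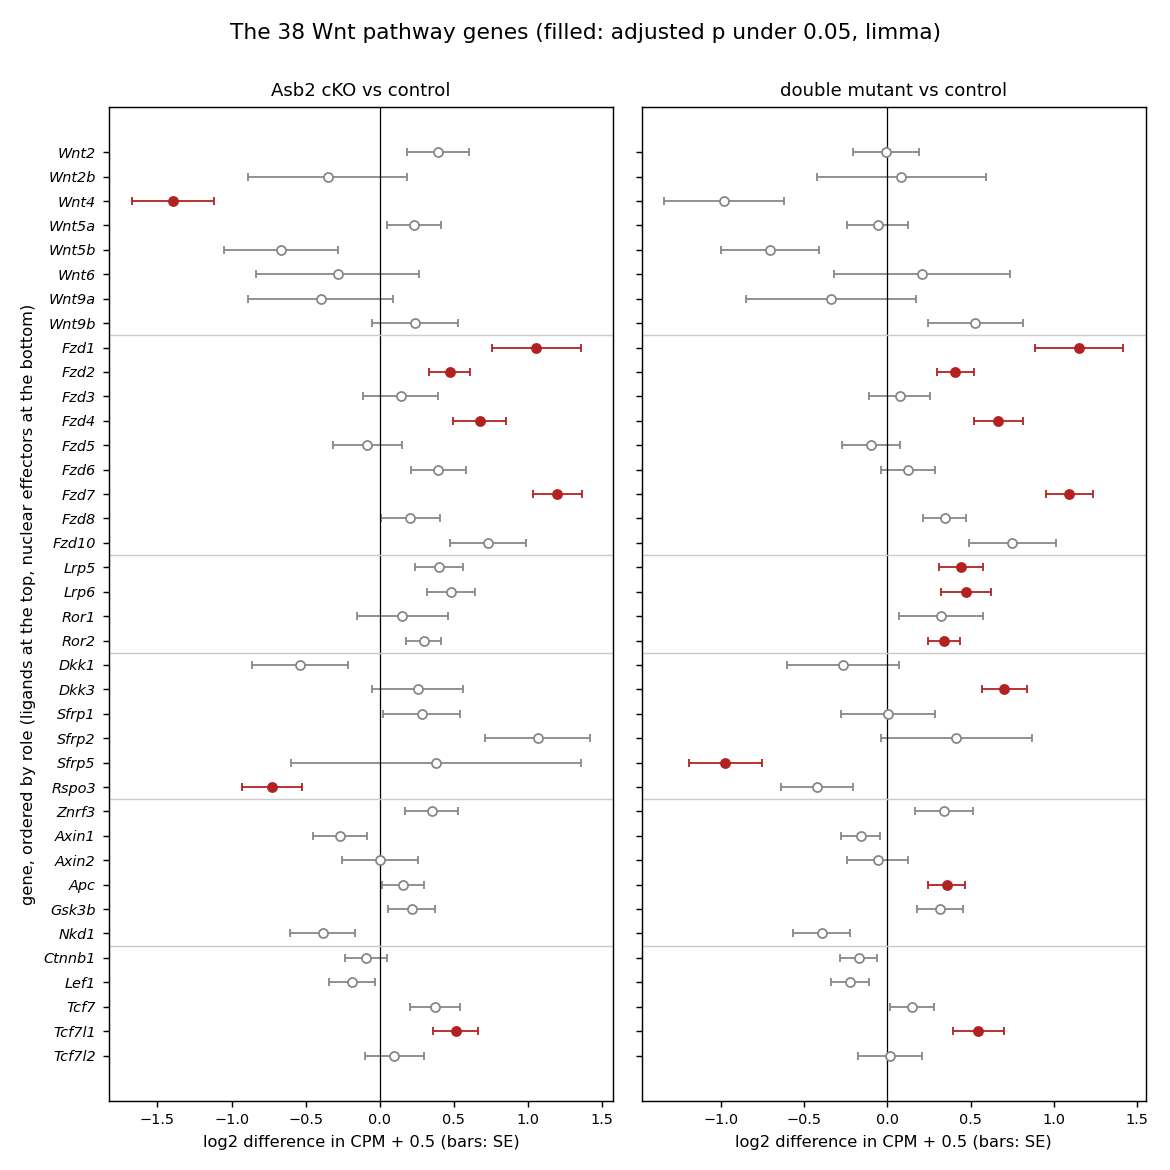
Log2 difference of each of the 38 genes in Asb2 cKO (left) and the double mutant (right) against control, on log2(CPM + 0.5), with bars of 1 SE; filled red points passed an adjusted p of 0.05 with limma. Fzd1, Fzd2, Fzd4, Fzd7 and Tcf7l1 lie to the right and are filled in both panels.

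Frizzled proteins are the membrane-spanning receptors of Wnt ligands, and of the 9 genes 4 rose in Asb2 cKO and 4 in the double mutant against control, and none fell. Under the Flna label 0 of 9 passed with limma. Fzd7, a receptor used in early mesoderm and in stem cells, read 64.2, 81.3 and 89.3 CPM in control libraries 1 to 3, 215, 173 and 153 in Asb2 cKO, 130.1, 149.9 and 102 under the Flna label, and 188, 156 and 155 in the double mutant. Every library of the other 3 groups lay above all 3 control libraries. The mean rose 2.30-fold in Asb2 cKO (log2 difference 1.20, SE 0.17, adjusted p = 0.00124) and 2.13-fold in the double mutant (1.09, SE 0.14, adjusted p = 0.000527). Both calls held under all 16 alternatives, with log2 differences of 1.06 in Asb2 cKO and 0.96 in the double mutant without control library 1. Under the Flna label alone the mean of Fzd7 was 1.63-fold that of control (log2 difference 0.70, SE 0.17) and did not pass (adjusted p = 0.273, unadjusted p = 0.00231). It passed with DESeq2 on recovered reads (adjusted p = 0.00778) and with limma without Flna-labelled library 3 (adjusted p = 0.0478).

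Fzd1, a receptor that can signal through beta-catenin, read 33.8, 75.0 and 65.2 CPM in control, 93.6, 157 and 103 in Asb2 cKO, 97.3, 71.9 and 60.1 under the Flna label, and 125, 119.8 and 122 in the double mutant. Control library 1 was the lowest of all 12, and the control did not overlap with Asb2 cKO or the double mutant. The rise was 2.03-fold in Asb2 cKO (log2 difference 1.06, SE 0.30, adjusted p = 0.0373) and 2.11-fold in the double mutant (1.15, SE 0.27, adjusted p = 0.0144). The first call did not hold without control library 1 (log2 difference 0.71, adjusted p = 0.0515), control library 3 (0.0546), or Asb2 cKO library 2 (0.142) or 3 (0.0765). The second was lost without double mutant library 1 (adjusted p = 0.0502) or 3 (0.0594), and held without control library 1 at a log2 difference of 0.80. Fzd1 was also higher in the double mutant than in the Flna-labelled group (1.60-fold, log2 difference 0.70, SE 0.16, adjusted p = 0.0118), a call lost in a joint fit of all 4 groups (0.0730) and with the Xist level as a covariate (0.0881).

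Fzd4, a receptor of endothelium that binds norrin as well as Wnt ligands, read 26.6, 26.8 and 34.5 CPM in control, 50.7, 53.7 and 37.3 in Asb2 cKO, 31.1, 38.2 and 35.6 under the Flna label, and 39.7, 48.8 and 51.5 in the double mutant. The Flna-labelled libraries overlapped with control, the other mutant libraries did not. Fzd4 rose 1.61-fold in Asb2 cKO (log2 difference 0.67, SE 0.18, adjusted p = 0.0223), 1.59-fold in the double mutant against control (0.67, SE 0.15, adjusted p = 0.00820), and 1.34-fold in the double mutant against the Flna label (0.41, SE 0.13, adjusted p = 0.0423). The double mutant call against control held under all 16 alternatives. The Asb2 cKO call did not hold without control library 1 (adjusted p = 0.0705) or 2 (0.0802), or Asb2 cKO library 1 (0.0601) or 2 (0.0622). The call against the Flna label was lost without any one of 5 libraries, namely double mutant 2 (adjusted p = 0.134) and 3 (0.121) and Flna-labelled 1 (0.142), 2 (0.0575) and 3 (0.0595), and also in the joint fit (0.0729) and with the Xist covariate (0.0838).

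Fzd2, the most abundant Frizzled gene per kilobase and one that also binds Wnt5a, read 109, 131 and 127 CPM in control, 194, 151 and 166 in Asb2 cKO, 147, 147 and 111 under the Flna label, and 170.1, 164 and 152 in the double mutant. The difference was smaller than for the 3 receptors above, though control again lay below every library of Asb2 cKO and the double mutant. Fzd2 rose 1.39-fold in Asb2 cKO (log2 difference 0.47, SE 0.14, adjusted p = 0.0367) and 1.33-fold in the double mutant (0.41, SE 0.11, adjusted p = 0.0179). The Asb2 cKO call was lost without any 1 control library (adjusted p = 0.134, 0.0695 and 0.0639 for libraries 1 to 3) or Asb2 cKO library 1 (0.101) or 3 (0.0729), and the double mutant call without control library 1 (0.0618) or double mutant library 1 (0.0545) or 2 (0.0712).

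**Figure D3:**
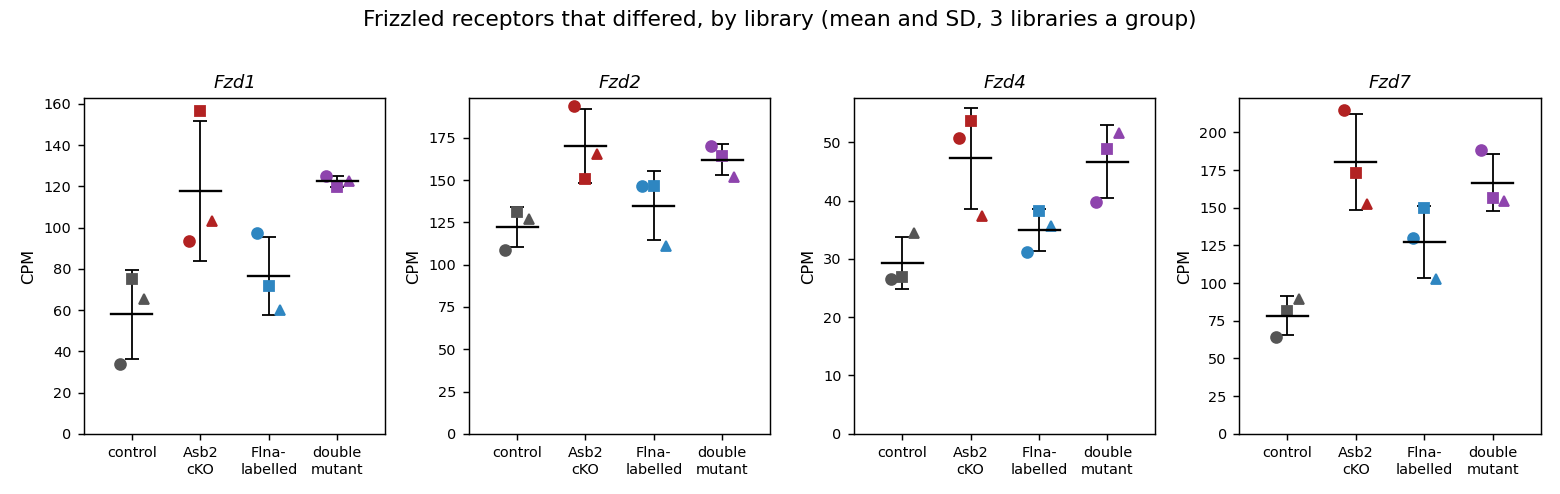
CPM of Fzd1, Fzd2, Fzd4 and Fzd7 in the 12 libraries by group; the circle, square and triangle are libraries 1 to 3, the line is the mean and the bar the SD. All Asb2 cKO and double mutant libraries lie above the highest control library for each of the 4 genes, and the Flna-labelled libraries do so for Fzd7.

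The other 5 Frizzled genes did not pass with limma in any comparison under the main settings. Fzd10 came nearest, at 4.32 ± 0.458 CPM in control, 7.66 ± 2.12 in Asb2 cKO (adjusted p = 0.0629) and 7.86 ± 2.55 in the double mutant (adjusted p = 0.0503), and in both its libraries lay above all control libraries. On recovered reads the double mutant difference of Fzd10 passed with edgeR (adjusted p = 0.0410) and with DESeq2 (0.0199). With limma this difference passed at a pseudocount of 2 (adjusted p = 0.0483) and with rescaling by the median of ratios (0.0499). It also passed with a replicate block (0.0469), in the joint fit (0.0474) and without double mutant library 2 (0.0199). The Asb2 cKO difference of Fzd10 passed with DESeq2 (adjusted p = 0.0288) and with limma without Asb2 cKO library 2 (0.0428). Fzd8, which passed nowhere, ranged from 16 to 26.7 CPM over the 12 libraries, Fzd3 from 13.3 to 27.3, Fzd6 from 9.49 to 17.9 and Fzd5 from 7.95 to 18.7. Per kilobase, the 9 Frizzled genes together reached 66.0, 84.4 and 86.0 CPM per kb in control, 131, 132 and 113 in Asb2 cKO, 102, 102 and 82.8 under the Flna label, and 127, 120.1 and 119 in the double mutant. Fzd2 made up 43.0 ± 2.31% of that sum in control and 37.5 ± 5.26% in Asb2 cKO, and Fzd7 11.1 ± 0.459% and 16.1 ± 1.98%.

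The promoters of 3 of the 4 Frizzled genes that rose together are shown to let a reader compare them, from RefSeq on GRCm38.p6. Each window runs from 250 bases before the RefSeq start to 50 bases after it, 5′ to 3′ on the strand of the gene. Fzd1 lies at chr5:4758167-4758466 on the minus strand, Fzd4 at chr7:89404116-89404415 and Fzd7 at chr1:59481897-59482196, both on the plus strand. Capitals mark the Tcf/Lef core, searched on either strand as CTTTGAA, then CTTTGAT, then also CTTTGTA and lastly also CTTTGTT.
Fzd1: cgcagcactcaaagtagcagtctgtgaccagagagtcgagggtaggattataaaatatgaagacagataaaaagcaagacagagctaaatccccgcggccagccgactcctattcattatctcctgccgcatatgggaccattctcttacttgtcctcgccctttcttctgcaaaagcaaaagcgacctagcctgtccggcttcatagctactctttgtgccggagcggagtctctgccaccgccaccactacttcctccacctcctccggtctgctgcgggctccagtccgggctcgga
Fzd4: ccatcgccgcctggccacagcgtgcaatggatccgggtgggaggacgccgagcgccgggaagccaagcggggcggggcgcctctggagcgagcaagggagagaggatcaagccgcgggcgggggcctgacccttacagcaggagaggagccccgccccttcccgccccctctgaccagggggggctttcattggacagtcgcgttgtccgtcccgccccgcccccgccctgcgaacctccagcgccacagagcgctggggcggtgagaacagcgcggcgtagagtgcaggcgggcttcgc
Fzd7: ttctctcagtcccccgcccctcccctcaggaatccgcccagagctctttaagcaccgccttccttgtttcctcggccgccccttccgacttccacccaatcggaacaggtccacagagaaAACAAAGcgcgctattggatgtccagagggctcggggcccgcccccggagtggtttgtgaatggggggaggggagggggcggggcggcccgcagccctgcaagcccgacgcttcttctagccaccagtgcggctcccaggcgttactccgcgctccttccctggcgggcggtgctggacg
Only the Fzd7 window of these 3 held the core, once, on the opposite strand, at 130 bases before the RefSeq start. GENCODE places the start of Fzd7 at position 59482424 and that of Fzd1 at 4758035, both downstream of the whole window shown. Windows were given for 25 of the 38 members, 33 windows in all, of which 5 (15.2%) held a core, against 16.9% of all 32851 windows of the same length. The hypoxia response core ACGTG, searched on both strands and able to share at most 1 base with a Tcf/Lef core, was in 4 of the 33 (12.1%) and in 19.6% of all windows, and in none of the 3 shown. A match describes the letters of the window and is not a site of binding.

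Of the 4 co-receptor genes, 0 passed in Asb2 cKO in the pairwise fit, where 21.6% of all genes did. In the double mutant 3 rose against control, where 15.6% of all genes did. The log2 differences of these 3 were close in both comparisons, and 0 of 4 passed between the double mutant and Asb2 cKO. In a joint limma fit of all 4 groups Lrp6 (adjusted p = 0.0199) and Ror2 (0.0271) passed in Asb2 cKO as well. They also did with the Xist covariate (0.0260 and 0.0333). Lrp5 and Lrp6 encode the co-receptors of canonical signalling, and Ror1 and Ror2 encode receptor kinases of Wnt5a. Lrp6 read 86.8, 107 and 133 CPM in control, 157, 162 and 133 in Asb2 cKO, 139.6, 146 and 134 under the Flna label and 163, 139 and 146 in the double mutant, with control below the other groups but, in library 3, close to them. It rose 1.37-fold in the double mutant (log2 difference 0.47, SE 0.15, adjusted p = 0.0365) and missed the threshold in Asb2 cKO (0.48, SE 0.16, adjusted p = 0.0591), where DESeq2 called it (0.0299). Lrp5 read 63.3, 68.9 and 88.7 CPM in control, 106, 104 and 80.7 in Asb2 cKO, 105, 100.4 and 82.3 under the Flna label and 104, 99.1 and 94.9 in the double mutant. Only the double mutant was clear of control, at 1.35-fold (log2 difference 0.44, SE 0.13, adjusted p = 0.0286), and in Asb2 cKO Lrp5 did not pass (0.40, SE 0.16, adjusted p = 0.103). Ror2 read 72.0, 71.5 and 79.2 CPM in control, 87.4, 92.2 and 93.9 in Asb2 cKO, 74.4, 83.6 and 73.0 under the Flna label and 95.3, 94.5 and 92.2 in the double mutant, a small difference with little spread. Ror2 rose in the double mutant 1.27-fold over control (log2 difference 0.34, SE 0.10, adjusted p = 0.0249) and 1.22-fold over the Flna label (0.29, SE 0.09, adjusted p = 0.0351), and did not pass in Asb2 cKO (adjusted p = 0.101). Ror1 averaged 15 ± 4.35 CPM in control and 17.2 ± 7.48 in Asb2 cKO and passed nowhere.

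These co-receptor calls were thin. In the double mutant against control, that of Lrp6 did not hold without control library 1 (adjusted p = 0.109) or 2 (0.0857) or without double mutant library 1 (0.103), 2 (0.0727) or 3 (0.0641). The Lrp6 call was also lost with a replicate block in limma (adjusted p = 0.0633). That of Lrp5 did not hold without control library 1 (adjusted p = 0.0921) or 2 (0.0902) or double mutant library 1 (0.0760) or 2 (0.0862), and with the Xist covariate (0.0891). Ror2 did not hold without control library 1 (adjusted p = 0.0680) or 2 (0.0844) or double mutant library 1 (0.0641), 2 (0.0867) or 3 (0.0519). Against the Flna label, Ror2 was lost without double mutant library 1 (adjusted p = 0.0763), 2 (0.0989) or 3 (0.0574) or Flna-labelled library 1 (0.119) or 3 (0.0780).

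Among the ligands, 1 of 8 passed in Asb2 cKO against control with limma, against 21.6% of all genes. In the double mutant against control 0 of 8 passed, against 32.3% of all genes. There 2 of 8, Wnt4 and Wnt5b, had an unadjusted p under 0.05, and both were called by DESeq2 (adjusted p = 0.0364 and 0.0398) but not by edgeR. Wnt4, a ligand best known from kidney and gonad development, read 24.9, 21 and 19.2 CPM in control, 12.8, 5.21 and 7.29 in Asb2 cKO, 20.6, 24.0 and 13.4 under the Flna label, and 20.7, 8.17 and 7.13 in the double mutant. The Asb2 cKO libraries were all below control, whereas double mutant library 1 lay at the control level and apart from the other 2 of its group. Wnt4 fell to 0.388 of its control mean in Asb2 cKO (log2 difference -1.40, SE 0.28, adjusted p = 0.00740), and the call held under all 16 alternatives. Its log2 difference in the double mutant was -0.98 (SE 0.36, adjusted p = 0.0687), and without double mutant library 1 it was -1.44 (adjusted p = 0.000962). Without that library Wnt4 was also lower than in the Flna-labelled group (log2 difference -1.25, adjusted p = 0.00919), which with all libraries it was not (-0.79, SE 0.39, adjusted p = 0.165).

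Wnt5b, a ligand of the non-canonical branch, read 4.94, 10.2 and 11.3 CPM in control, 8.53, 3.00 and 4.92 in Asb2 cKO, 10.2, 11 and 6.94 under the Flna label and 5.89, 4.62 and 4.33 in the double mutant. The double mutant lay below every Flna-labelled library, and control library 1 lay within its range. Wnt5b fell to 0.528 of the Flna-labelled mean in the double mutant (log2 difference -0.84, SE 0.22, adjusted p = 0.0210). That call was lost without Flna-labelled library 1 (adjusted p = 0.0769) or 2 (0.0814) or double mutant library 2 (0.0738) or 3 (0.0635), and in a joint fit of all 4 groups (0.0865). Against control the log2 difference was -0.70 (adjusted p = 0.0934), and it passed without control library 1 (-1.05, adjusted p = 0.00929).

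Of the 8 listed ligands, Wnt2 and Wnt5a carried most of the RNA and did not pass in any comparison. Wnt11, a ligand outside the 38, averaged 39.7 ± 2.82 CPM in control and is not part of the sums below. Wnt2, which marks the inflow and pericardial region of the early heart, averaged 70.6 ± 19.3 CPM in control, 91.9 ± 19.0 in Asb2 cKO, 81.4 ± 20.2 under the Flna label and 69.2 ± 12.3 in the double mutant. Wnt5a, a ligand needed for outflow tract growth, averaged 58.6 ± 14.8, 67.7 ± 7.59, 57.1 ± 15.3 and 55.4 ± 7.79 CPM in the same order. Per kilobase the 8 ligands together reached 41.8 to 48.4 CPM per kb in control, 38.1 to 55.6 in Asb2 cKO, 45.2 to 54.3 under the Flna label and 40.0 to 44.7 in the double mutant. Wnt2 made up 42.0 to 61.6% of that sum in control, 56.9 to 68.8% in Asb2 cKO, 42.6 to 62.4% under the Flna label and 40.4 to 64.7% in the double mutant. The ligand sums of all 3 other groups overlapped with that of control, and those of the double mutant lay just below the Flna-labelled ones. The Frizzled sums of Asb2 cKO and the double mutant did not overlap with that of control. Wnt6, Wnt2b, Wnt9a and Wnt9b stayed between 0.954 and 16.4 CPM with no call. Control library 1, low in epicardial markers, was also the lowest control library for Wnt2b (2.14 CPM, against 5.60 and 12.9) and Wnt9a (0.954, against 4.75 and 5.82). Without it Wnt9a was lower both in Asb2 cKO (log2 difference -1.06, adjusted p = 0.0456) and in the double mutant (-1.0, adjusted p = 0.0312).

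Secreted modulators act outside the cell, with the Sfrp proteins binding Wnt ligands, Dkk1 blocking Lrp5 and Lrp6, and Rspo3 raising receptor levels. Rspo3 read 39.6, 34.1 and 31.5 CPM in control, 17.5, 18.1 and 28.7 in Asb2 cKO, 19.2, 23.0 and 29.4 under the Flna label and 18.9, 25.1 and 36.6 in the double mutant. Control lay above Asb2 cKO and the Flna-labelled group and overlapped with the double mutant. Rspo3 fell to 0.611 of control in Asb2 cKO (log2 difference -0.73, SE 0.20, adjusted p = 0.0273). It did not pass under the Flna label (-0.56, SE 0.17, adjusted p = 0.294) or in the double mutant (-0.42, SE 0.22, adjusted p = 0.163). Without double mutant library 3 the latter passed (-0.67, adjusted p = 0.0193). The Asb2 cKO call did not hold without control library 1 (adjusted p = 0.0886) or 2 (0.0707) or Asb2 cKO library 1 (0.0758) or 2 (0.0728).

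Sfrp5, a Wnt inhibitor expressed at the inflow and foregut side of the early heart, read 27.4, 24.5 and 30.8 CPM in control, 78.8, 7.94 and 71.0 in Asb2 cKO, 37.1, 49.7 and 56.6 under the Flna label and 18.5, 9.51 and 14.7 in the double mutant. Within Asb2 cKO, library 2 lay far below the other 2 and below every control library. It was also the lowest of its group in the liver bud and yolk sac genes, at 1.98 CPM against 99.7 and 54.7. Control library 2 was low in these genes as well, at 5.38 CPM against 254 and 264, with Sfrp5 at 24.5. What part this has in the Sfrp5 values was not tested. In the double mutant Sfrp5 fell to 0.516 of control (log2 difference -0.97, SE 0.22, adjusted p = 0.00903) and to 0.298 of the Flna-labelled mean (-1.74, SE 0.25, adjusted p = 0.00227). Both calls were lost in a joint fit of all 4 groups, in which the split Asb2 cKO libraries enter the spread (adjusted p = 0.309 and 0.0849). With the Xist level as a covariate the difference from control shrank to -0.15 (adjusted p = 0.877). Without Asb2 cKO library 2, Sfrp5 was higher in Asb2 cKO than in control (log2 difference 1.43, adjusted p = 0.000424), lower in the double mutant than in Asb2 cKO (-2.40, adjusted p = 0.00638), and different in the interaction of the Asb2 and Flna labels (-3.17, adjusted p = 0.00149). With all libraries none of these passed, with log2 differences of 0.38, -1.35 and -2.12. DESeq2 also called Sfrp5 higher under the Flna label than in control (log2 difference 0.79, adjusted p = 0.00388), where limma gave 0.77 (SE 0.17, adjusted p = 0.238).

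Dkk3, a Dickkopf relative whose part in Wnt signalling is less settled than that of Dkk1, read 99.4, 89.8 and 110.0 CPM in control, 78.2, 209 and 103 in Asb2 cKO, 76.1, 56.2 and 95.7 under the Flna label and 135, 171 and 184 in the double mutant. The double mutant was above all control and all Flna-labelled libraries, and Asb2 cKO library 2 was higher still. Dkk3 rose 2.15-fold in the double mutant over the Flna label (log2 difference 1.12, SE 0.20, adjusted p = 0.00558), a call that held under all 16 alternatives, and 1.64-fold over control (0.70, SE 0.14, adjusted p = 0.00415). The latter was lost in the joint fit (adjusted p = 0.0896) and with the Xist covariate (log2 difference 0.41, adjusted p = 0.340). The library in which Sfrp5 was lowest among Asb2 cKO, library 2, was thus also the one in which Dkk3 was highest.

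Dkk1 read 4.97, 13.1 and 8.15 CPM in control, 7.05, 4.94 and 4.61 in Asb2 cKO, 15.7, 14.9 and 10.5 under the Flna label and 7.68, 8.24 and 4.68 in the double mutant. The double mutant lay below the Flna-labelled libraries and overlapped with control. Dkk1 fell from 13.7 ± 2.82 under the Flna label to 6.87 ± 1.92 in the double mutant (log2 difference -0.97, SE 0.24, adjusted p = 0.0179), which was lost without Flna-labelled library 1 (0.0687) or 2 (0.0632). Dkk1 is itself a known target of beta-catenin, and its promoter window is shown for its Tcf/Lef cores, at chr19:30549447-30549746 on the minus strand of GRCm38.p6, with the cores in capitals.
Dkk1: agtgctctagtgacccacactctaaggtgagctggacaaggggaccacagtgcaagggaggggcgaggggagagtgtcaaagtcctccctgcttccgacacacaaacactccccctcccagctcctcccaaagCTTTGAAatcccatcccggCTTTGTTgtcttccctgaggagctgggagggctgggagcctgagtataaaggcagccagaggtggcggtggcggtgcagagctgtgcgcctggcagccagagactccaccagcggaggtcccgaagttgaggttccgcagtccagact
The window holds CTTTGAA at 117 and CTTTGTT at 98 bases before the RefSeq start, and GENCODE places the start of the gene further upstream, at position 30549665, so both lie inside the GENCODE gene. It was the only window of the members with 2 or more cores (1 of 33, 3.03%), against 1.94% of all windows.

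Sfrp1 and Sfrp2, the remaining inhibitors, did not pass with limma. Sfrp1 averaged 119 ± 44.4 CPM in control and read 172, 219 and 119 under the Flna label, and control library 1 was the lowest of the 12 at 73.3. Sfrp2 averaged 7.06 ± 3.56 CPM in control, 14.8 ± 5.87 in Asb2 cKO (log2 difference 1.06, SE 0.35, adjusted p = 0.0550), 21.1 ± 13.8 under the Flna label and 9.77 ± 5.25 in the double mutant, with a spread of 6.50 to 34.1 CPM within the Flna-labelled group. The Asb2 cKO difference of Sfrp2 passed with DESeq2 (log2 difference 1.08, adjusted p = 0.0199) and with limma without control library 2 (1.42, adjusted p = 0.0229). DESeq2 also called Sfrp1 lower in the double mutant than under the Flna label (-0.55, adjusted p = 0.0343).

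**Figure D4:**
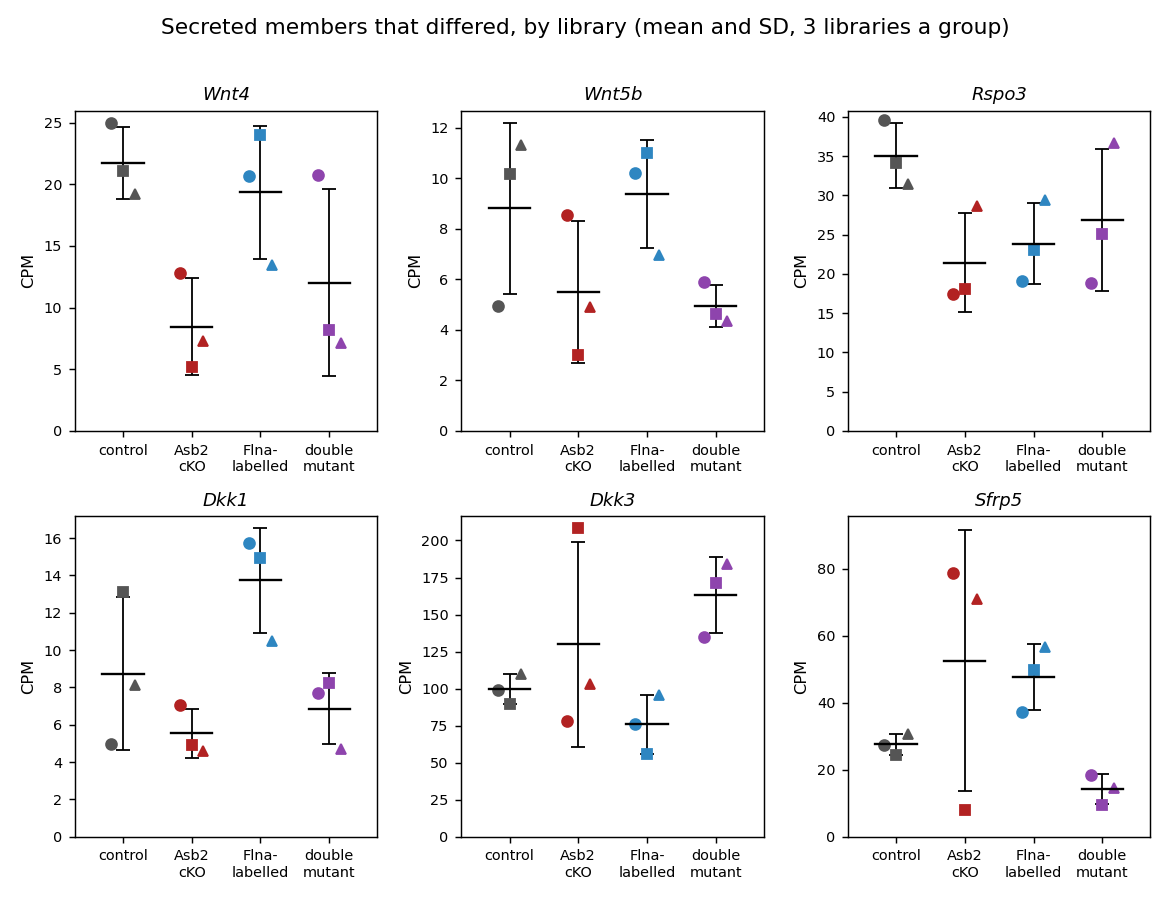
CPM of the 6 secreted members that passed in at least 1 comparison, in the 12 libraries by group; the circle, square and triangle are libraries 1 to 3, the line is the mean and the bar the SD. Asb2 cKO library 2 is at 7.94 CPM for Sfrp5 and 209 for Dkk3, apart from the other 2 libraries of its group in both.

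The intracellular regulators include Axin2, Nkd1 and Znrf3, inhibitors that beta-catenin signalling itself switches on, which is why they are read as feedback targets, and Lef1 is another. None of the 4 passed against control in Asb2 cKO, under the Flna label or in the double mutant, with limma, edgeR or DESeq2. At an unadjusted p under 0.05 with limma there were 0 of 4 in Asb2 cKO, 3 of 4 under the Flna label (Axin2, Nkd1 and Znrf3, all above control, where 13.1% of all genes had such a p) and 1 of 4 in the double mutant (Nkd1, below control). Axin2 read 19.5, 13.4 and 17.2 CPM in control, 24.9, 12 and 15 in Asb2 cKO, 23.2, 31.9 and 18.4 under the Flna label and 18, 16.7 and 13.2 in the double mutant. The groups overlapped except that the double mutant lay just below the Flna-labelled libraries, and the log2 difference from control was 0.00 (SE 0.26, adjusted p = 0.998) in Asb2 cKO and -0.06 (SE 0.18, adjusted p = 0.833) in the double mutant. Nkd1, which binds Dishevelled, read 24.7, 16.7 and 23.4 CPM in control, 19.0, 12 and 18.5 in Asb2 cKO, 27.0, 29.7 and 29.5 under the Flna label and 15.6, 15.3 and 17.4 in the double mutant. The Flna-labelled libraries were the highest of all 12, and the double mutant was clear below them. Nkd1 fell to 0.560 of the Flna-labelled mean in the double mutant (log2 difference -0.82, SE 0.12, adjusted p = 0.00162), which held under all 16 alternatives. Against control it was -0.38 (SE 0.22, adjusted p = 0.226) in Asb2 cKO, -0.40 (SE 0.17, adjusted p = 0.101) in the double mutant, and 0.42 (SE 0.16, adjusted p = 0.335) under the Flna label. Without control library 2 the double mutant difference passed (-0.57, adjusted p = 0.0327).

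Znrf3, a membrane ubiquitin ligase that removes Frizzled receptors from the cell surface, read 14.0, 14.8 and 17.1 CPM in control, 23.2, 19.6 and 16.4 in Asb2 cKO, 21.2, 22.1 and 17.6 under the Flna label and 21.9, 21.8 and 15.4 in the double mutant. Its log2 difference from control was 0.35 (SE 0.18, adjusted p = 0.184) in Asb2 cKO and 0.34 (SE 0.17, adjusted p = 0.157) in the double mutant, with 1 library of each inside the control range. Axin1, the scaffold of the destruction complex, read 59.4, 64.5 and 69.6 CPM in control, 72.1, 42.5 and 49.5 in Asb2 cKO, 88.4, 76.7 and 69.9 under the Flna label and 64.6, 55.8 and 52.8 in the double mutant. It fell to 0.737 of the Flna-labelled mean in the double mutant (log2 difference -0.44, SE 0.12, adjusted p = 0.0236), a call lost in the joint fit (0.0667) and without Flna-labelled library 1 (0.0916) or 2 (0.0624) or double mutant library 2 (0.0852) or 3 (0.0693).

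Apc, which holds beta-catenin in the complex, read 93.8, 93.7 and 109.7 CPM in control, 117, 122 and 93.8 in Asb2 cKO, 109, 102 and 106 under the Flna label and 117, 127 and 137 in the double mutant. Only the double mutant was clear of control, at 1.28-fold (log2 difference 0.36, SE 0.11, adjusted p = 0.0337). The call was lost with the Xist covariate (adjusted p = 0.0944) and without control library 1 (0.0938) or 2 (0.107) or double mutant library 2 (0.102) or 3 (0.105). Gsk3b, the kinase of the complex, averaged 118 ± 23.4 CPM in control and 136 ± 11.8, 139 ± 2.80 and 145 ± 8.07 in Asb2 cKO, the Flna-labelled group and the double mutant, and did not pass.

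**Figure D5:**
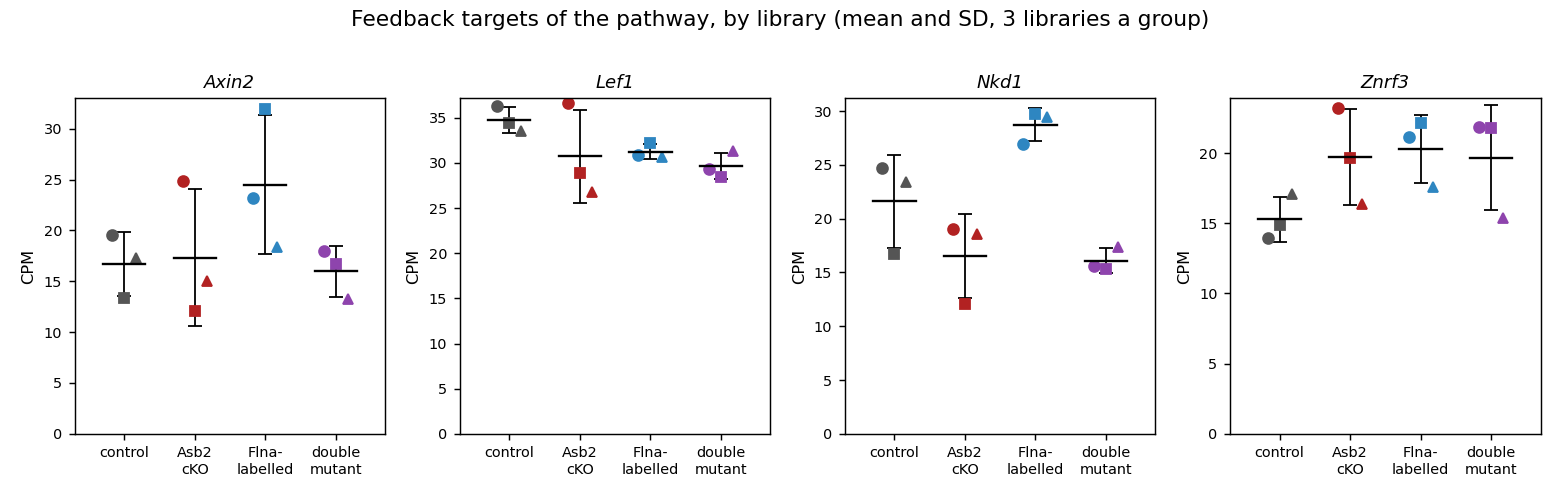
CPM of Axin2, Lef1, Nkd1 and Znrf3 in the 12 libraries by group; the circle, square and triangle are libraries 1 to 3, the line is the mean and the bar the SD. For Nkd1 the Flna-labelled libraries sit between 27.0 and 29.7 CPM and the double mutant libraries between 15.3 and 17.4.

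Of the nuclear effectors, 1 of 5 passed against control, both in Asb2 cKO (against 21.6% of all genes) and in the double mutant (against 32.3%). Tcf7l1, the family member known chiefly as a repressor, read 32.4, 40.5 and 33.4 CPM in control, 58.0, 44.2 and 50.3 in Asb2 cKO, 51.6, 52.5 and 37.7 under the Flna label and 63.4, 48.3 and 45.1 in the double mutant. Asb2 cKO and the double mutant lay above control and the Flna label overlapped with it. Tcf7l1 rose 1.43-fold in Asb2 cKO (log2 difference 0.51, SE 0.15, adjusted p = 0.0378) and 1.47-fold in the double mutant (0.55, SE 0.15, adjusted p = 0.0215). The first call did not hold without control library 1 (adjusted p = 0.117) or 3 (0.0943) or Asb2 cKO library 1 (0.108) or 3 (0.0787), the second without control library 1 (0.0625) or 3 (0.0558) or double mutant library 1 (0.0688). Lef1 read 36.4, 34.4 and 33.5 CPM in control, 36.6, 28.8 and 26.8 in Asb2 cKO, 30.8, 32.2 and 30.7 under the Flna label and 29.4, 28.4 and 31.3 in the double mutant, and did not pass (log2 difference -0.19 in Asb2 cKO and -0.22 in the double mutant, adjusted p = 0.408 and 0.158). All Flna-labelled and double mutant libraries of Lef1 lay below the control libraries. Ctnnb1 averaged 1208 ± 48.7 CPM in control, 1133 ± 90.6 in Asb2 cKO, 1237 ± 57.4 under the Flna label and 1072 ± 45.2 in the double mutant, with no call. Tcf7 ranged from 24.3 to 38.8 CPM and Tcf7l2 from 16.7 to 29.7, also with no call.

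The Flna label was examined on each Asb2 background. Among controls carrying 1 floxed Asb2 allele, 0 of 38 members passed with limma, against 0.0720% of 13891 genes, and 11 members (28.9%) had an unadjusted p under 0.05, against 13.1% of all genes. The edgeR quasi-likelihood test also gave 0, and DESeq2 gave 2, Fzd7 and Sfrp5. All Flna-labelled libraries lay above control for 7 members and below it for 3, against 1288 and 1210 of the 13891 genes. The log2 difference was above 0 for 31 of the 38 members (81.6%), against 50.3% of all genes, with a median of 0.25 against 0.00, and the low control library 1 enters every one of these differences. Marker lists moved with the same comparison: the log2 difference was above 0 for 0 of 9 cardiomyocyte genes (median -0.51), 7 of 7 neural crest genes (median 0.71) and 8 of 9 pharyngeal genes (median 0.47), and 3 of 7 erythroid genes fell. Their part in the values of the Wnt genes was not tested. On the Asb2fl/fl background, 0 of 38 passed, against 0.0214% of 14037 genes, with 0 members at an unadjusted p under 0.05 and 0 calls by edgeR and by DESeq2. The log2 differences between double mutant and Asb2 cKO ran from -1.35 for Sfrp5 to 0.49 for Wnt6, with a median of -0.01. For the 4 Frizzled genes above they were 0.09 (SE 0.18) for Fzd1, -0.06 (SE 0.13) for Fzd2, -0.01 (SE 0.17) for Fzd4 and -0.11 (SE 0.15) for Fzd7.

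The Asb2 genotype was also compared within the Flna label, where it rests on the labels, as Asb2 RNA did not separate the groups. Here 9 of 38 members (23.7%) passed, against 31.5% of 13954 genes, with 4 higher (10.5%, against 15.1%) and 5 lower (13.2%, against 16.3%), again shares below those of all genes. The 4 higher were Fzd1, Fzd4, Ror2 and Dkk3, and the 5 lower were Wnt5b, Dkk1, Sfrp5, Axin1 and Nkd1. The count fell to 4 without Flna-labelled library 1 and to 5 without double mutant library 2 or 3. Fzd7 was 1.31-fold higher and did not pass (log2 difference 0.40, SE 0.15, adjusted p = 0.0699), although its libraries did not overlap. Of the 13954 genes, 3127 were likewise higher without overlap and 3498 lower. Fzd7 passed without Flna-labelled library 2 (log2 difference 0.52, adjusted p = 0.0386). Without Flna-labelled library 3, 5 more members passed, all lower: Wnt2b, Wnt9a, Sfrp1, Sfrp2 and Axin2 (log2 difference -0.76, adjusted p = 0.0166 for Axin2). Whether the Asb2 difference depended on the Flna label was tested as an interaction over all 12 libraries. In simulated data that fit recovered 40 of 100 planted 2-fold differences, against 89 to 96 in the pairwise fits. The simulation gave every gene the same spread beyond read sampling, so it does not give the recovery for members with a wider spread. Of the 38 members 0 passed, against 0% of 13981 genes. With limma 3 were under an unadjusted p of 0.05, Fzd7 (-0.80, SE 0.24, unadjusted p = 0.00473, adjusted p = 0.437), Sfrp2 (-1.99, SE 0.82) and Rspo3 (0.87, SE 0.35), and edgeR and DESeq2 gave 0. The interaction of all 9 Frizzled genes was below 0, with a median of -0.22, against 48.6% of all genes below 0. This was not particular to them. It was below 0 for 31 of the 38 members (median -0.21) and for 51 of 70 further pathway genes (median -0.19).

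Other genes of the pathway, taken from a list of 86 of which 77 were listed in the tables, were read beside the 38. That list, too, was chosen with earlier results of these data known. In Asb2 cKO, 15 of 70 tested were higher (21.4%, against 10.7% of all genes) and 3 lower (4.29%, against 10.9%). Among them Dact1, a Dishevelled-binding regulator, rose from 55.1 ± 8.65 to 143 ± 13.7 CPM (log2 difference 1.37, SE 0.15, adjusted p = 0.000338), and its relative Dact2 from 3.78 ± 1.63 to 12.6 ± 1.43 (1.70, adjusted p = 0.00491). Porcn, the acyltransferase that Wnt ligands need for secretion, rose from 4.27 ± 1.17 to 13.2 ± 3.35 CPM (1.52, SE 0.26, adjusted p = 0.00359). The Lrp5 and Lrp6 inhibitor Sost rose from 10.1 ± 0.900 to 24.8 ± 1.73 CPM (1.26, adjusted p = 0.000895) and Tnks, which destabilises Axin, from 83.0 ± 16.5 to 168 ± 36.9 (1.00, adjusted p = 0.00534). One Frizzled gene outside the 38 went the other way: Fzd9 fell from 6.75 ± 1.23 to 1.82 ± 0.60 CPM (-1.66, SE 0.29, adjusted p = 0.00390).

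Of the same list, 14 of 67 were higher (20.9%, against 15.6% of all genes) and 3 lower (4.48%, against 16.7%) in the double mutant than in control. Dact1 rose to 126 ± 11.6 CPM (log2 difference 1.20, adjusted p = 0.000273), Porcn to 10.6 ± 0.913 (1.24, adjusted p = 0.00271) and Sost to 23.9 ± 5.16 (1.19, adjusted p = 0.00109), and Fzd9 fell to 1.99 ± 0.769 (-1.57, adjusted p = 0.00263). The planar polarity genes Daam1 (1.00, adjusted p = 0.000924) and Prickle1 (0.75, adjusted p = 0.00241) rose as well. Against the Flna label the double mutant had 12 of 70 higher (17.1%, against 15.1% of all genes) and 6 lower (8.57%, against 16.3%), with Porcn, Prickle1 and Daam1 higher and the inhibitor gene Dkk2 lower, at 2.17 ± 0.460 against 8.95 ± 3.68 CPM (-1.76, SE 0.30, adjusted p = 0.00374), and the beta-catenin partner gene Pygo2 and antagonist gene Cby1 lower too. No gene of this list passed in the remaining comparisons with limma, where an unadjusted p under 0.05 was found for 13 of 69 under the Flna label (18.8%, against 13.1% of all genes), 4 of 70 between double mutant and Asb2 cKO (5.71%, against 3.36%) and 10 of 70 in the interaction (14.3%, against 9.81%).

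Target genes outside the 38, from a list of 15 of which 14 were listed, were read in the same way. Their list was likewise chosen with earlier results of these data known. In Asb2 cKO 3 of 12 tested were higher (25.0%, against 10.7% of all genes) and 0 lower (against 10.9%), the proliferation gene Mycn from 96.4 ± 7.10 to 136 ± 12.4 CPM (log2 difference 0.49, adjusted p = 0.0223), the second heart field ligand Fgf10 from 10.4 ± 0.583 to 24.0 ± 0.960 (1.17, adjusted p = 0.00107), and Ascl2 from 0.411 ± 0.363 to 3.54 ± 0.983 (2.19, adjusted p = 0.00399). In the double mutant 3 of 12 were higher (25.0%, against 15.6% of all genes), again Mycn, Fgf10 and Ascl2, and 1 of 12 was lower (8.33%, against 16.7%), the homeobox gene Msx1 (log2 difference -0.70, adjusted p = 0.0454). Within the Flna label, 2 of 11 were higher (18.2%, against 15.1% of all genes) and 2 lower (18.2%, against 16.3%) in the double mutant. Mycn and Fgf10 were higher, and the cyclin gene Ccnd1, at 122 ± 22.6 against 226 ± 29.9 CPM (-0.90, adjusted p = 0.00325), and Msx1 (-0.94, adjusted p = 0.0149) were lower. These genes are also known to have inputs other than Wnt, and Fgf10 was also among the second heart field markers read above.

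The authors' deposited tables give their own fold changes and false discovery rates (FDR) for 4 of the comparisons. By the authors' deposited table, of the 38 members 8 had an FDR under 0.05 in Asb2 cKO against control (26.6% of their genes), the 7 found with limma and Lrp6. For the double mutant the authors' deposited table listed 11 members (28.9% of genes), 10 of them shared with limma, with Fzd10 in place of Sfrp5. For the Flna label it listed 1, Fzd7, at a log2 fold change of 0.70 and an FDR of 0.0183 (0.780% of genes), and for the double mutant against Asb2 cKO it listed 0 (0.145% of genes).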

How the data were processed

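Gene-level values of 12 heart RNA-seq libraries, 3 in each of 4 genotype groups, were used. Reads were aligned with STAR, counted with HTSeq and handled with edgeR on mm10, per the submitters' processing notes. The authors deposited CPM values (signal), which include a scaling factor for each library, log2 fold changes with p-values and FDR, and a gene length. In every library 100.0% of the deposited values were whole reads within 0.01 read, which gave the depth. Another 15 columns without a sample name were not used. Differences were tested with limma 3.58.1 (trend and robust options) on log2(CPM + 0.5), in genes listed in all libraries compared with a mean of at least 1 CPM, with Benjamini-Hochberg adjustment over all genes and a threshold of 0.05. Fold changes on this scale understate those of low genes. Each pair of groups was fitted alone, and the interaction over all 12 libraries. Scripts were tested on simulated data. Alternatives were DESeq2 1.42.0 and the quasi-likelihood test of edgeR 4.0.16 on the recovered reads, other pseudocounts, filters and scaling, a replicate block, a joint fit, an Xist covariate and leaving out each library. Named members were those called in any comparison, with the feedback genes, and other members were given by ranges. From the further pathway list up to 6 genes per comparison were named, at 5 CPM or more. The members and lists were chosen with earlier results of these data known.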

Additional observations from a re-analysis of the deposited data

How the results depend on the processing

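Of 27 calls of members in 3 comparisons, 6 held under all 16 alternatives and 0 changed direction. The 7 members called in Asb2 cKO against control became 3 with a replicate block, which ended the calls of Fzd2, Fzd4, Rspo3 and Tcf7l1 (adjusted p = 0.0637 to 0.121), and 3 to 7 with 1 library left out. Over the alternatives that kept all libraries, this count ran from 3 to 10. The 11 called in the double mutant against control became 7 with the Xist covariate and 6 to 11 with 1 library left out. With all libraries kept, the alternatives gave 7 to 14. The 9 called in the double mutant against the Flna label became 15 with the replicate block, 4 in the joint fit and 4 to 12 with 1 library left out. For the Flna label against control the count of 0 became 2 with DESeq2 and 0 to 1 with 1 library left out. The counts of 0 for the double mutant against Asb2 cKO and for the interaction were 0 to 1 with 1 library left out, the call being Sfrp5 without Asb2 cKO library 2. Over all genes, the 3033 calls in Asb2 cKO against control ranged from 1581 to 2508 with 1 library left out and from 1557 to 4317 under the other alternatives. The 4523 in the double mutant against control ranged from 2875 to 4342 and from 2669 to 5070, and the 4394 against the Flna label from 2712 to 4623 and from 3943 to 5474. The 10 under the Flna label ranged from 0 to 98 and from 1 to 244, the 3 between the double mutant and Asb2 cKO from 2 to 26 and from 0 to 14, and the 0 of the interaction from 0 to 18 and from 0 to 71. In 0 of 6 pairs of groups were all 3 correlations of same-numbered libraries above 0.1, and they ran from -0.46 to 0.43. Between the Flna-labelled group and the double mutant the correlations were 0.27, 0.03 and 0.43. With 3 libraries a group this rule cannot exclude that replicate numbers pair some libraries. The cause of these changes was not tested.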
